A study of Mus musculus with 6 samples.

Results

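Amino acids enter and leave cells through membrane proteins of several solute carrier families, and the 10 genes described here encode transporters of the plasma membrane or the subunit that carries them there. They were chosen by name, and all 10 were found among the 24014 genes of the count tables: Slc3a2, Slc7a5, Slc7a8, Slc7a7, Slc1a5, Slc1a4, Slc38a1, Slc38a2, Slc7a1 and Slc6a9. RNA was sequenced from epidermal cells of wild type newborn mouse back skin at postnatal day 2. The 3 blister libraries came from skin healing after a suction blister, in which negative pressure of 523.4 ± 1.3 mmHg from a syringe 4 mm wide had lifted the epidermis off the dermis, typically over 3 mm. The 3 control libraries came from skin that had not been blistered. In both groups the epidermis was freed with 0.25% trypsin and passed through a 70 µm filter, with no sort for a cell type. No label ties a library to an animal, and p-values therefore measure the spread between these libraries, part of which may be technical.

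Glutamine, leucine, arginine and the other amino acids that the transporters move feed protein synthesis and the synthesis of nucleotides and glutathione, and leucine and arginine inside the cell are signals to the growth kinase mTORC1. Slc3a2 encodes the CD98 heavy chain, a glycoprotein that pairs through a disulfide bond with one of several light chains, among them LAT1 (Slc7a5), LAT2 (Slc7a8) and y+LAT1 (Slc7a7), and takes them to the cell surface. These pairs are exchangers: they bring 1 amino acid in for 1 that goes out. They therefore depend on carriers that load the cell, such as the sodium-coupled importers SNAT1 (Slc38a1) and SNAT2 (Slc38a2). When amino acids run short, the transcription factor ATF4 turns on genes of amino acid uptake, amino acid synthesis and tRNA charging.

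The promoters of Slc7a8 and Slc1a4 are shown because Slc7a8 was the transporter gene that fell and Slc1a4 was the one nearest to the threshold. Each window runs 5′ to 3′ along the gene, from 250 bases before to 50 bases after a transcription start, from RefSeq on GRCm38.p6. Both lie on the minus strand, Slc7a8 at chr14:54781837-54782136 and Slc1a4 at chr11:20332664-20332963. Capitals mark matches to TGATGNAA, the core of the C/EBP-ATF element through which ATF4 acts, searched on both strands.
Slc7a8: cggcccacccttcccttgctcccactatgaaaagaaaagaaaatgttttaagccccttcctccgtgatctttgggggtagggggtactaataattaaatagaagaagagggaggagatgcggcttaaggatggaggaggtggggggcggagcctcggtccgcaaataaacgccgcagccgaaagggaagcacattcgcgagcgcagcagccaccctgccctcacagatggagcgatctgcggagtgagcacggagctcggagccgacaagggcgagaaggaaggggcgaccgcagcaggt
Slc1a4: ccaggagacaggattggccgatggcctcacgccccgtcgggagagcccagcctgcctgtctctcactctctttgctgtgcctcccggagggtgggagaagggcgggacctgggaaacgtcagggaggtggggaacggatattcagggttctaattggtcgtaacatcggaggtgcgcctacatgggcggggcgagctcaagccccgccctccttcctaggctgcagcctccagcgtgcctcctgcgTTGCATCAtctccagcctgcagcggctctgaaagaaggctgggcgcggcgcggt
The Slc7a8 window holds no match. The Slc1a4 window holds 1, on the opposite strand, which begins 4 bases before the transcription start. RefSeq gave windows for 7 of the 10 genes, 14 windows in all, and 3 of them, 1 from Slc1a4 and 2 from Slc7a7 that share a match, hold the core, which is present in 3.97% of 32851 promoter windows of this length. The E-box CACGTG, a binding site of MYC and related factors, is in 0 of the 14 windows and in 7.15% of all windows. A match or its absence describes these letters, not binding.

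Library totals ran from 7600567 to 12972196 counts in the blister group and from 11743139 to 15912863 counts in the control group. A blister library, blister 3, lay nearest to the controls on the first principal component of log2 CPM. RNA of Xist was high in 2 blister libraries and 1 control library and RNA of the Y-linked Ddx3y in the others, so the groups were not balanced for sex-linked RNA and the libraries within a group differed in it. Keratinocyte markers were abundant in every library, with summed levels from 111040 to 202356 CPM in blister and from 68155 to 93752 CPM in control libraries. Of these markers 6 of 12 rose, where 9.74% of all genes tested were called higher. CPM here are counts scaled to 1000000 per library with TMM factors.

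All 10 genes passed the filter on low counts and were tested with edgeR's quasi-likelihood test, with p-values adjusted by Benjamini-Hochberg over all 14028 genes tested and a threshold of 0.05. Slc7a8 fell, and the other 9 did not pass. At this threshold 21.3% of all genes were called, 11.6% lower and 9.74% higher in blister libraries, so 1 lower and 0 higher among 10 genes is close to the background. At an unadjusted p under 0.05 the count was 4 of 10, against 5477 of 14028 genes. The median log2 fold change, blister over control, was 0.07 over the 10 genes and 0.00 over all genes tested. The CPM of the groups did not overlap for 3 of the 10 genes (Slc7a8, Slc1a4 and Slc38a1), against 44.6% of all genes.

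**Figure D1:**
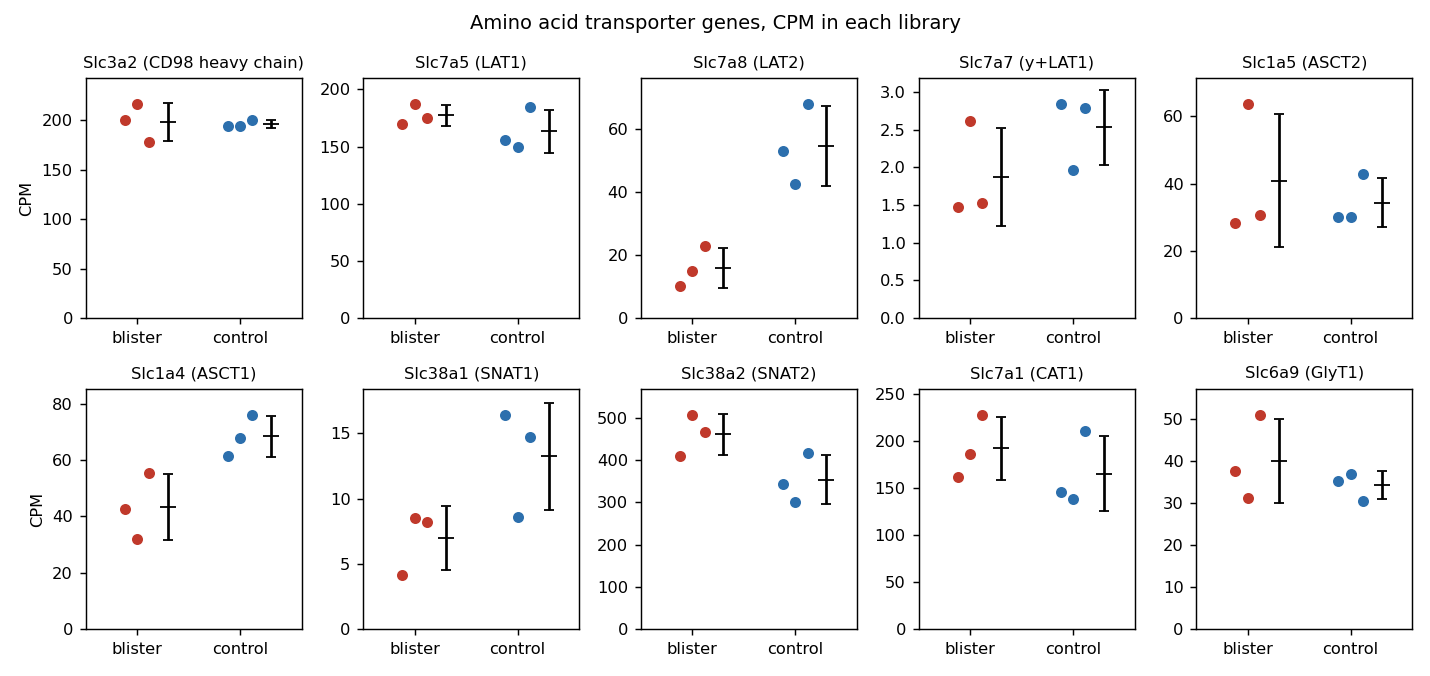
CPM of each of the 10 transporter genes in the 3 blister libraries (red) and the 3 control libraries (blue), with points in the order of replicate numbers and the mean ± SD in black beside them; each panel has its own linear axis from 0. Slc7a8 lies between 10.2 and 22.8 CPM in blister libraries, below each control library, while Slc3a2 and Slc7a5 overlap between the groups.

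The CD98 heavy chain gene and its main light chain stood at nearly the same level in both groups. Slc3a2 was at 200.2, 216 and 178 CPM in blister 1, 2 and 3, against 194, 194 and 201 CPM in control 1, 2 and 3. The control libraries lay inside the range of the blister libraries. Its log2 fold change was 0.01 ± 0.12 (SE, edgeR adjusted p = 0.946), with a 95% interval from -0.26 to 0.28. Slc7a5 encodes LAT1, which takes up leucine and other large neutral amino acids in exchange for intracellular glutamine or other amino acids. It was at 169, 187 and 175 CPM in blister libraries, against 156, 149.6 and 184 CPM in control libraries. Control 3 lay within the blister range and the groups overlapped. For Slc7a5 the log2 fold change was 0.12 ± 0.12 (SE, edgeR adjusted p = 0.506), with a 95% interval from 0.891-fold to 1.32-fold.

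Slc7a8 encodes LAT2, another CD98 light chain for neutral amino acids, which also accepts small ones such as alanine and glycine. It was at 10.2, 14.9 and 22.8 CPM in blister 1, 2 and 3, against 53.2, 42.8 and 68.0 CPM in control 1, 2 and 3. The highest blister library, blister 3, lay below the lowest control library. Slc7a8 averaged 15.96 ± 6.40 CPM in blister and 54.7 ± 12.7 CPM in control libraries (SD, n = 3 each). It was 3.41-fold lower in blister libraries (log2 fold change -1.77 ± 0.30 (SE), edgeR adjusted p = 0.0118), with a 95% interval from 2.09-fold to 5.57-fold lower. Its p-value ranked 568th of 14028. The log2 fold change ranged from -2.13 without blister 3 to -1.51 without blister 1, and the call held when each of the 6 libraries was left out in turn (highest edgeR adjusted p = 0.0411, without control 1).

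Some markers of other cells in the preparation also fell. Over all genes 11.6% were called lower and 9.74% higher. In hair follicle markers 12 of 14 fell and 0 rose. Their summed level ran from 279.7 to 1164 CPM in blister libraries, against 3233 to 5404 CPM in control libraries. In dermal fibroblast markers 8 of 14 fell and 0 rose, with sums of 706 to 1532 CPM in blister libraries and 1501 to 8715 CPM in control libraries, which overlapped. Melanocyte markers fell in 5 of 7 cases, with sums of 340.02 to 545 CPM against 857 to 1016 CPM. No marker of these 3 lists was at 0 throughout. Among the blister libraries the melanocyte sums had the same order as Slc7a8, lowest in blister 1 and highest in blister 3. Blister 3 was also highest for follicle markers, which were lowest in blister 2. It was lowest for summed fibroblast markers, of which Postn alone gave 599, 544 and 426 CPM in blister 1, 2 and 3. By the mean log2 CPM of the fibroblast markers blister 1 was lowest, with 2.82, 4.91 and 3.74 in blister 1, 2 and 3. With the mean log2 CPM of the fibroblast markers as a covariate the Slc7a8 call was lost, at a log2 fold change of -1.18 (edgeR adjusted p = 0.248). In that fit 123 genes in all were called higher and 20 lower. The covariate was lower in every blister library than in any control library (5.64, 5.85 and 7.915 in control 1, 2 and 3). The fit therefore cannot tell fibroblast markers apart from group. In bulk RNA, fewer cells of a type and less RNA per cell cannot be told apart, and the part of these cells in the fall of Slc7a8 was not tested.

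**Figure D2:**
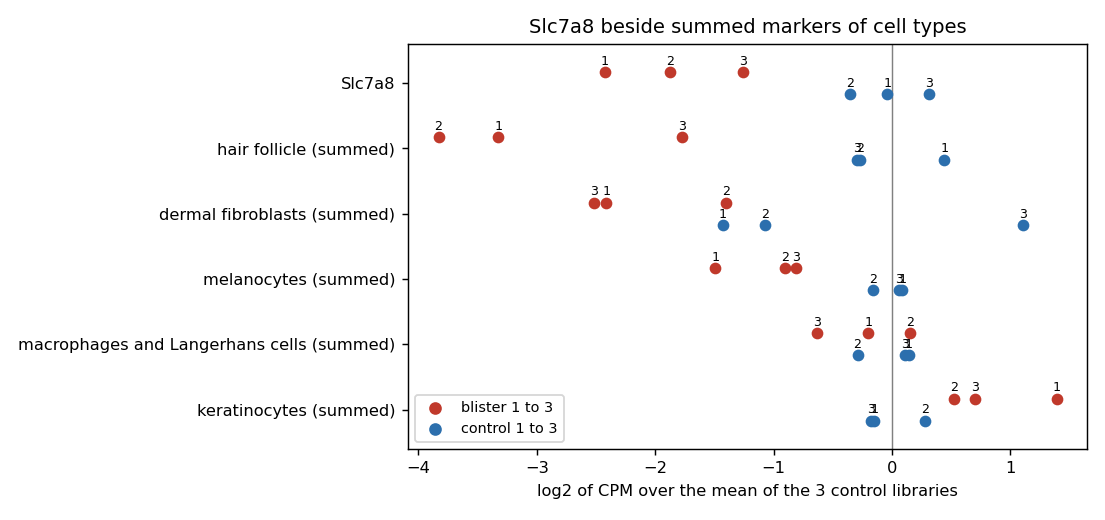
Slc7a8 and the summed CPM of 5 marker lists in each library, as log2 of the level over the mean of the 3 control libraries; the digit at each point is the replicate number, with blister (red) above control (blue). The 3 blister libraries lie below all control libraries for Slc7a8, hair follicle and melanocyte markers, overlap with them for fibroblast and macrophage markers, and lie above them for keratinocyte markers.

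Slc7a7, the third light chain gene among the 10, encodes y+LAT1, which exports arginine and lysine in exchange for neutral amino acids with sodium and is best known from kidney and intestine and from macrophages. It was scarce, with 16 to 19 counts in blister and 28 to 49 counts in control libraries. These were 1.47, 2.62 and 1.53 CPM in blister libraries, against 2.84, 1.96 and 2.79 CPM in control libraries, and the groups overlapped. Its log2 fold change was -0.46 ± 0.34 (SE, edgeR adjusted p = 0.348). Markers of macrophages and Langerhans cells overlapped between the groups too, with sums of 192 to 331 CPM against 243 to 329 CPM. Of these markers 1 of 14 fell (Cx3cr1), where 11.6% of all genes were called lower. Exons of Slc7a7 share 232 bases with Oxa1l on the other strand; the sources used here name no strand setting for the counting, so reads of the pair cannot be told apart.

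Relative to gene length, Slc7a5 made up a larger share of the CD98 light chain RNA in blister libraries. Levels here are CPM per kb of merged GENCODE exons, summed over Slc7a5, Slc7a8, Slc7a7 and the other light chain genes Slc7a6, Slc7a10 and Slc7a11. Slc7a5 made up 82.6%, 81.8% and 77.9% of the sum in blister libraries, against 64.7%, 66.7% and 63.1% in control libraries. Slc7a8 made up 3.68%, 4.82% and 7.51% in blister libraries, against 16.3%, 14.1% and 17.2% in control libraries. The groups did not overlap for either share. The level of Slc7a5 itself overlapped, at 45.7, 50.5 and 47.3 CPM per kb in blister and 42.0, 40.3 and 49.7 CPM per kb in control libraries. Slc7a8 and Slc7a6 were lower in every blister library than in any control, so the shares in part restate their fall. Per kb, Slc7a5 RNA was 22.4, 16.98 and 10.4 times as abundant as Slc7a8 RNA in blister libraries, against 3.96, 4.72 and 3.66 times in control libraries. These ratios do not depend on the scaling of the libraries and were not tested. The ratio of Slc7a5 to its heavy chain Slc3a2 was 0.805, 0.823 and 0.939 per kb in blister libraries, against 0.764, 0.734 and 0.874 in control libraries, and overlapped.

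**Figure D3:**
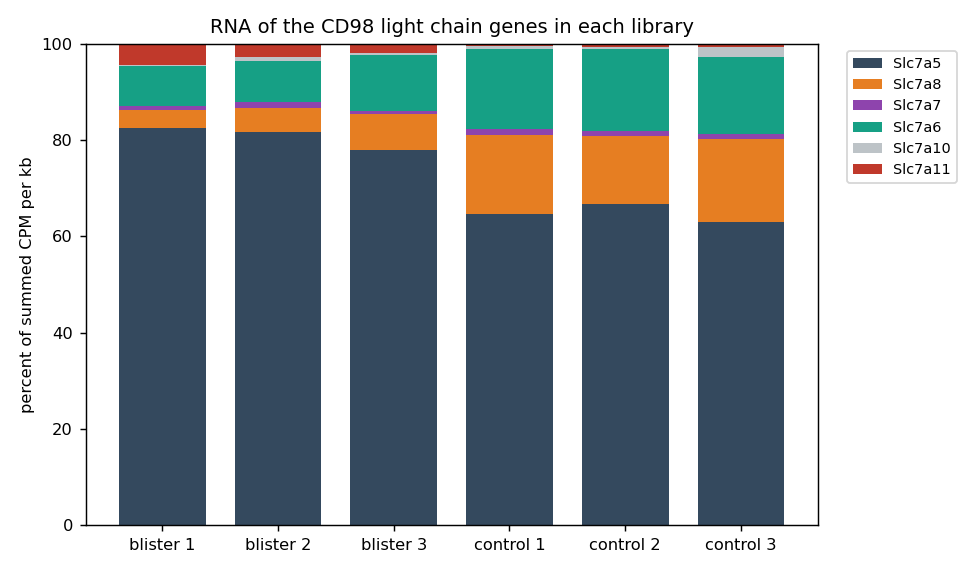
Share of each CD98 light chain gene in their summed RNA (CPM per kb of merged exons, in percent) for the 3 blister and the 3 control libraries. Slc7a5 takes 77.9% to 82.6% in blister and 63.1% to 66.7% in control libraries, with smaller shares of Slc7a8 and Slc7a6 and larger shares of Slc7a11 in blister libraries.

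Of the paired genes for ASC exchangers, which swap alanine, serine, cysteine or glutamine with sodium, neither passed the threshold. Slc1a4 encodes ASCT1, a carrier of serine, alanine and cysteine. It was at 42.6, 31.8 and 55.4 CPM in blister libraries, against 61.5, 67.8 and 76.0 CPM in control libraries. The groups did not overlap, but the difference just missed the threshold, at a log2 difference of -0.66 ± 0.20 (SE) and an edgeR adjusted p of 0.0544. In 8 of the 18 alternative fits the gene was called lower, among them DESeq2 (adjusted p = 0.0209) and limma-voom (adjusted p = 0.049), and with a library left out its adjusted p ran up to 0.149, without blister 1. Slc1a5 encodes ASCT2, a main route of glutamine into dividing cells. It was at 28.4, 63.6 and 30.7 CPM in blister libraries, against 30.1, 30.2 and 42.7 CPM in control libraries. Blister 2 alone stood above the controls, and the other blister libraries lay close to the 2 lower controls. The log2 fold change was 0.24 ± 0.32 (SE, edgeR adjusted p = 0.608), and -0.20 without blister 2. Per kb, the ratio of Slc1a5 to Slc1a4 was 0.627, 1.88 and 0.522 in blister libraries, against 0.460, 0.419 and 0.529 in control libraries. This ratio overlapped between the groups and was not tested.

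Of the sodium-coupled importers, SNAT2 was abundant and SNAT1 scarce. Slc38a2, whose product SNAT2 is raised in many cells when amino acids are short, was at 411, 508 and 466 CPM in blister libraries, against 344, 302 and 417 CPM in control libraries. Blister 1 lay just below control 3, so the groups overlapped. The log2 fold change was 0.38 ± 0.16 (SE, edgeR adjusted p = 0.121). Slc38a1, for SNAT1, was at 4.13, 8.53 and 8.24 CPM in blister libraries, against 16.4, 8.61 and 14.7 CPM in control libraries. The groups were only just separated, since blister 2 and control 2 were almost level. The log2 fold change was -0.93 ± 0.35 (SE, edgeR adjusted p = 0.0933). Per kb, Slc38a2 RNA exceeded Slc38a1 RNA 194, 116 and 110.3 times in blister libraries, against 40.8, 68.4 and 55.2 times in control libraries, without overlap and without a test.

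The carriers for arginine and for glycine did not differ beyond the spread between libraries. Slc7a1 encodes CAT1, the widespread carrier of arginine, lysine and ornithine. It was at 162, 186 and 228 CPM in blister libraries, against 146, 138 and 211 CPM in control libraries, and overlapped. The log2 difference for Slc7a1 was 0.22 ± 0.20 (SE, edgeR adjusted p = 0.453), with a 95% interval from -0.25 to 0.69. Slc6a9 encodes GlyT1, which takes up glycine with sodium and chloride and is best known from brain and from red cell precursors. It was at 37.7, 31.2 and 51.0 CPM in blister libraries, against 35.4, 36.8 and 30.4 CPM in control libraries. The groups overlapped, and the log2 fold change was 0.23 ± 0.19 (SE, edgeR adjusted p = 0.3996). Slc6a9 shares up to 1429 exon bases with a gene on the other strand, so its counts carry the same uncertainty as those of Slc7a7.

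Per kb of merged exons, 3 of the 10 genes formed the top of the order in both groups. In blister libraries Slc3a2 stood at 56.1 ± 5.50, Slc38a2 at 52.2 ± 5.50 and Slc7a5 at 47.8 ± 2.44 CPM per kb (SD, n = 3), with overlapping values. In control libraries the same 3 stood at 55.6 ± 1.08, 40.1 ± 6.57 and 44.0 ± 4.999 CPM per kb, where Slc38a2 and Slc7a5 overlapped and Slc3a2 lay above both. Slc7a1, at 16.6 ± 2.90 in blister and 14.3 ± 3.45 CPM per kb in control libraries, and Slc1a4, at 11.02 ± 3.00 and 17.4 ± 1.85 CPM per kb, came next, in the opposite order in controls, and their values overlapped in each group. Slc1a5 (9.80 ± 4.72 in blister and 8.22 ± 1.74 CPM per kb in control libraries) and Slc6a9 (7.78 ± 1.96 and 6.65 ± 0.652 CPM per kb) did not differ from each other beyond their spread. Slc7a8 stood at 3.19 ± 1.28 CPM per kb in blister libraries, below Slc6a9, and at 10.9 ± 2.54 CPM per kb in control libraries, above it. Slc7a7 and Slc38a1 were below 1 CPM per kb in every library. Merged exons count the longest isoforms, so levels of genes with long merged models, such as Slc38a1 with 17236 and Slc7a1 with 11530 bases, may be set too low beside the others. The summed level of the 10 was 191, 219 and 207 CPM per kb in blister libraries, against 191, 183 and 223 CPM per kb in control libraries, and overlapped.

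**Figure D4:**
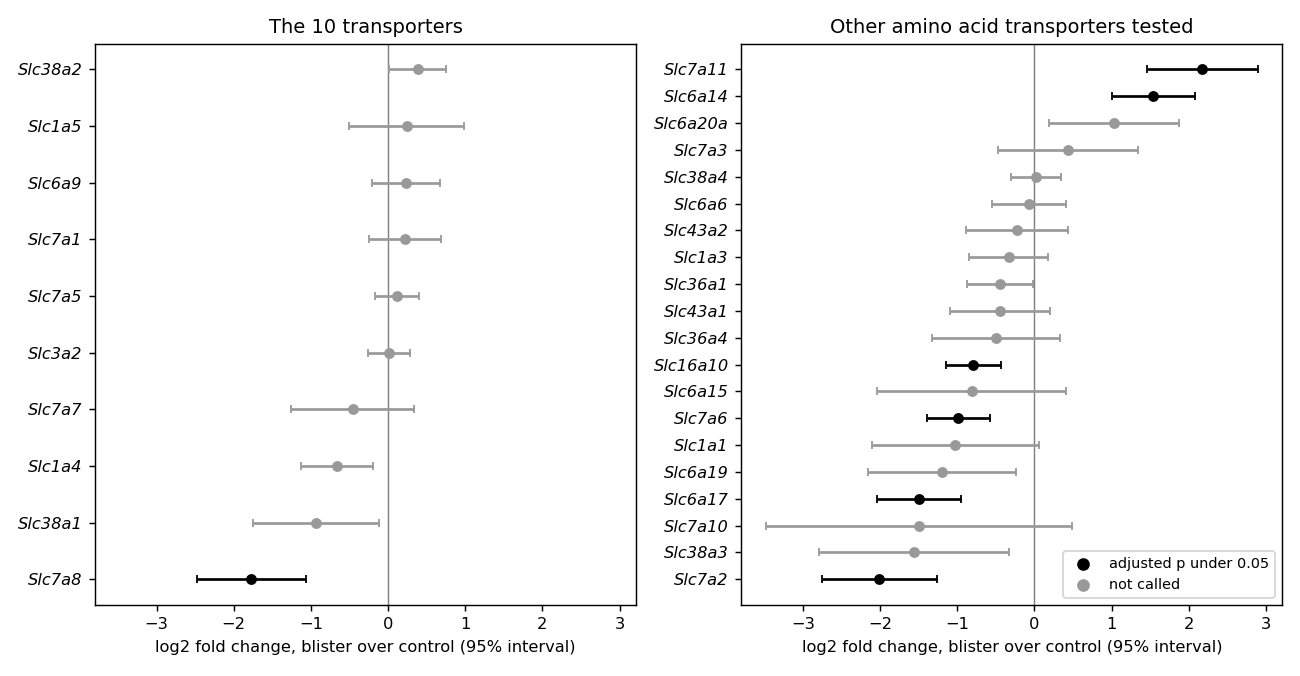
Log2 fold change, blister over control, with its 95% interval for the 10 transporters (left) and 20 other amino acid transporter genes (right), fitted on 3 blister and 3 control libraries; black marks an adjusted p under 0.05 and grey the rest, and intervals are not adjusted for the number of genes. Among the 10, Slc7a8 is called (-1.77), and among the others Slc7a11 (2.17) and Slc6a14 (1.54) are called higher and 4 genes lower.

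Amino acid transporter genes outside the 10 changed in both directions. Of 25 listed genes 20 were tested, and 2 rose and 4 fell, with a median log2 fold change of -0.47. Over all genes 9.74% were called higher and 11.6% lower, so the number of risers was at the background. Slc7a11 encodes xCT, the CD98 light chain that imports cystine for glutathione synthesis. It was at 33.4, 22.9 and 16.05 CPM in blister libraries, against 4.68, 4.55 and 6.71 CPM in control libraries, and every blister library lay above every control. Slc7a11 rose 4.51-fold (log2 fold change 2.17 ± 0.31 (SE), edgeR adjusted p = 0.00792). Slc6a14, a sodium- and chloride-driven importer of neutral and cationic amino acids, rose 2.91-fold to 9.24 ± 1.10 CPM in blister libraries, against 3.18 ± 0.521 CPM in control libraries (edgeR adjusted p = 0.00858). Slc7a2, for the cationic carrier CAT2, fell 4.03-fold to 12.04 ± 6.27 CPM in blister libraries, against 49.1 ± 3.95 CPM in control libraries (edgeR adjusted p = 0.00984). Slc6a17, a neutral amino acid carrier known from synaptic vesicles, fell 2.81-fold (edgeR adjusted p = 0.00936). The light chain gene Slc7a6, for y+LAT2, averaged 25.8 ± 5.63 CPM in blister and 51.3 ± 5.35 CPM in control libraries and fell 1.99-fold (edgeR adjusted p = 0.0128), and Slc16a10, for the aromatic amino acid carrier TAT1, fell too (log2 fold change -0.79, edgeR adjusted p = 0.0156). None of these 6 calls was kept with the fibroblast marker covariate, which did not overlap between the groups and left few calls over all genes. The fold changes of Slc7a11 and Slc7a2 stayed about as large in that fit, at 2.23 and -2.03 on the log2 scale (edgeR adjusted p = 0.114 and 0.134). Those of Slc6a14 and Slc6a17 were smaller, at 1.23 and -1.05 (edgeR adjusted p = 0.164 and 0.201). With library size alone as scaling 7 genes of the list were called lower.

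The cytosolic aminoacyl-tRNA synthetases charge tRNAs with the amino acids that the transporters bring in. In this list 15 of 20 tested genes rose and 0 fell, with a median log2 fold change of 0.49, where 9.74% of all genes were called higher. Nars, for the asparaginyl enzyme, was at 267, 239 and 218 CPM in blister libraries, against 143, 145 and 148 CPM in control libraries (edgeR adjusted p = 0.00991). Tars, for the threonyl enzyme, averaged 184 ± 27.0 CPM in blister and 110.9 ± 3.24 CPM in control libraries (edgeR adjusted p = 0.0136). The Nars call was lost without control 1 (edgeR adjusted p = 0.0518), and the Tars call without control 1 or control 2. The blister and control values of all 20 did not overlap, where the same held for 44.6% of all genes. The log2 differences were between 0.29 and 0.78, and the number called was 4 without blister 1, 1 without control 1, 3 without control 2, 4 without control 3, 4 with library size alone and 5 with Xist as a covariate.

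Some targets of the amino acid response rose. Of 23 tested genes in this list 8 rose and 1 fell, with a median log2 fold change of 0.42, where 9.74% of all genes were called higher and 11.6% lower. Asns, for asparagine synthetase, was at 144, 119 and 101 CPM in blister libraries, against 65.4, 62.0 and 53.0 CPM in control libraries. All blister libraries lay above all controls, and Asns rose 2.02-fold (log2 fold change 1.01 ± 0.16 (SE), edgeR adjusted p = 0.00953). Psat1, an enzyme of serine synthesis, averaged 342 ± 28.6 CPM in blister and 191 ± 23.3 CPM in control libraries (edgeR adjusted p = 0.0105). Trib3, for a pseudokinase that feeds back on ATF4, rose 2.55-fold (edgeR adjusted p = 0.0249), a call lost without blister 1, control 1 or control 3 and with the Xist covariate (edgeR adjusted p = 0.0505). The gene that fell was Pck2, for mitochondrial phosphoenolpyruvate carboxykinase (log2 fold change -1.08, edgeR adjusted p = 0.0217), lost without blister 1 or any 1 control. Atf4 itself was at 436, 427 and 327 CPM in blister libraries, against 299, 292 and 299.6 CPM in control libraries (log2 fold change 0.42 ± 0.14 (SE), edgeR adjusted p = 0.0738). Atf4 was called higher in 3 alternative fits, with DESeq2 (adjusted p = 0.0223), without blister 3 (edgeR adjusted p = 0.0173) and without blister 3 and control 3 (edgeR adjusted p = 0.0329). Ddit3, for CHOP, was at 13.9, 14.5 and 12.7 CPM in blister libraries, against 18.0, 18.6 and 18.0 CPM in control libraries (edgeR adjusted p = 0.0754). The number of risers in the list was 2 without blister 1, 2 without control 1, 4 without control 2, 2 without control 3, 4 with library size alone and 3 with the Xist covariate.

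In the list of amino acid synthesis and breakdown enzymes, which shares Asns, Psat1, Phgdh and Cth with the response list, 9 of 28 tested genes rose and 1 fell, against 9.74% and 11.6% of all genes, with a median log2 fold change of 0.45. Besides Asns and Psat1 the risers included Shmt2, Psph and Phgdh of serine and glycine synthesis and Ass1 of arginine synthesis. The gene that fell was Cbs, for cystathionine beta-synthase, at 49.6 ± 9.38 CPM in blister and 81.2 ± 6.40 CPM in control libraries (edgeR adjusted p = 0.0226). That call was lost without blister 1 or any 1 control, and 4 genes rose without blister 1, 2 without control 1 and 5 with library size alone. Myc, whose product drives several transporter genes in other cells, rose to 221 ± 61.0 CPM in blister libraries, against 104 ± 4.35 CPM in control libraries (log2 fold change 1.08 ± 0.20 (SE), edgeR adjusted p = 0.0141, or 0.0549 without control 1). Among genes that sense amino acids upstream of mTORC1, 2 of 30 tested rose and 0 fell, where 9.74% of all genes were called higher, with a median log2 fold change of 0.04. These were Lamtor3, of the Ragulator scaffold, and Rheb, the GTPase that activates mTORC1 (edgeR adjusted p = 0.0324 and 0.0461), and both calls were lost when any 1 library other than blister 3 was left out; with library size alone 0 genes of this list were called higher and 6 lower, with the Xist covariate 0 were called, and without blister 3 the counts were 6 higher and 1 lower. Mtor was at 84.2, 81.8 and 98.0 CPM in blister libraries, against 82.5, 86.0 and 96.6 CPM in control libraries. With the fibroblast marker covariate 0 genes of the synthetase, response and sensing lists and 2 of the enzyme list were called higher. That covariate did not overlap between the groups. The log2 fold changes in that fit were 0.69 for Nars, 0.69 for Tars and 1.23 for Myc (edgeR adjusted p = 0.164, 0.201 and 0.128), close to or above those without the covariate. For Asns, Psat1 and Trib3 the log2 fold changes were smaller than without it, at 0.69, 0.53 and 0.35 (edgeR adjusted p = 0.201, 0.236 and 0.601).

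**Figure D5:**
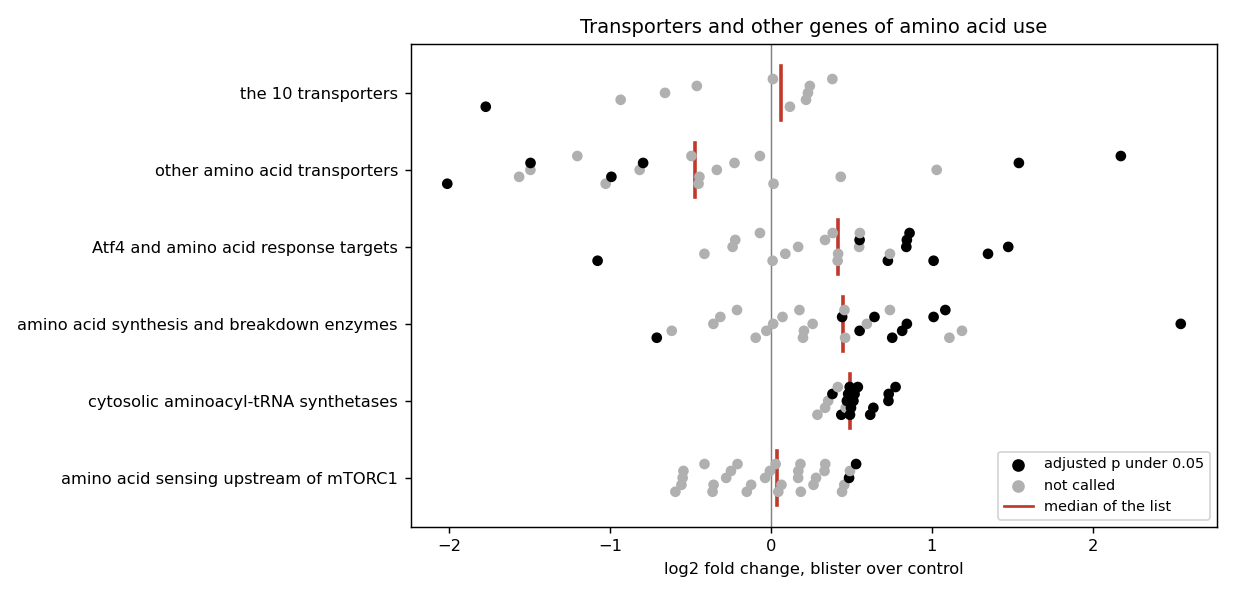
Log2 fold change, blister over control, of each tested gene in the 10 transporters and in 5 lists of genes of amino acid use, with calls at an adjusted p under 0.05 in black, other genes in grey and the median of each list as a red bar. The medians are 0.07 for the 10 transporters, -0.47 for the other transporters, 0.42 for the amino acid response, 0.45 for the enzymes, 0.49 for the synthetases and 0.04 for the sensing genes.

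The genes most like Slc7a5 over the 6 libraries, by Euclidean distance of log2 CPM centred on the mean of the libraries, were Gemin5, Mcm4 and Ggta1, at distances of 0.0744, 0.0771 and 0.0813. Gemin5, for a subunit of the SMN complex, was at 50.5, 56.2 and 50.5 CPM in blister libraries, against 44.96, 45.6 and 55.2 CPM in control libraries, and like Slc7a5 was highest in blister 2 and, among controls, in control 3. Of the other transporters Slc3a2 lay nearest to Slc7a5, at a distance of 0.2895, which ranked 623rd among all genes tested. For Slc7a8 the nearest was Slc38a1, at 1.275. Slc7a5 was the nearest of the 10 for Slc3a2, Slc38a2 (0.3685) and Slc6a9 (0.716).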

How the data were processed

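Per the labels, RNA from trypsinised epidermal cells was taken up in TRIzol, selected with oligo-dT beads and made into TruSeq libraries. HISAT2 2.0.0 is the aligner and featureCounts the counter named in the submitters' processing notes, with NCBIM37 and mm9 as builds. The values deposited by the authors are raw counts per gene symbol, 24014 in each of 6 tables, of which 3759 were at 0 throughout. Strand setting and numbers of animals are not stated there. Expression was measured once per library, and no pair of libraries within a group was a copy of another.

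Genes passing filterByExpr (minimum count 10, minimum total 15) were scaled with TMM and fitted with edgeR 4.0.16 in R 4.3.3 (quasi-likelihood, group alone, two-sided, Benjamini-Hochberg over 14028 genes, threshold 0.05), and the procedure was tested on simulated data. Log2 CPM used a prior count of 2. Alternatives were other scalings and filters, DESeq2 1.42.0, limma-voom (limma 3.58.1), a replicate block, covariates for Xist and for fibroblast markers, leaving out the 50 most abundant genes, each library, or blister 3 with control 3. The 10 genes, the lists and the alternatives were chosen with earlier results of these data known. Genes named were the 10, 6 fixed ones (Atf4, Ddit3, Asns, Trib3, Myc and Slc7a11), the 2 calls with the smallest p in each direction of each pathway list, the 3 nearest to Slc7a5 and the most abundant marker of each cell type; others were chosen after their values were seen. Exon lengths are from GENCODE M21 and promoters from RefSeq, both on GRCm38, so no coordinates of the authors' builds are given. Same-numbered blister and control libraries did not deviate together, so the numbers were not taken as pairs. Some genes of the enzyme list are not reported here.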

Additional observations from a re-analysis of the deposited data

How the results depend on the processing

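The 18 alternatives were run for the counts of calls and the named genes, except that Slc7a7, Krt1 and Pecam1 each had no value under 1 of them; shares, ratios, marker sums and distances had none. For the 10 transporters 0 were called higher under each of them. The number called lower was 1 or 2, except 0 with the fibroblast covariate: 2 with upper-quartile scaling, library size alone, a stricter filter (5 CPM in 3 libraries), the replicate block, DESeq2, limma-voom and without blister 3 and control 3, and 1 to 2 with a library left out, the second gene being Slc1a4. Slc7a8 was called in 17 of 18. Over all genes, 544 were called higher and 2831 lower with library size alone, which moved the median log2 fold change by -0.254, 720 and 1062 with the Xist covariate, and 123 and 20 with the fibroblast covariate. With a library left out the counts ran from 306 to 1998 higher and from 479 to 2063 lower, lowest without control 1. The split of calls between higher and lower also shifted with upper-quartile scaling (988 and 1886). Numbers shared by a blister and a control library gave correlations of deviations of 0.212, -0.259 and 0.0107 and were not read as pairs; with the replicate block 1365 genes were called higher and 1511 lower.

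Signs of genes that were not called turned in some fits, and the cause was not tested. With library size alone the log2 fold change was -0.24 for Slc3a2, -0.13 for Slc7a5, -0.029 for Slc7a1, -0.0196 for Slc6a9, -0.15 for Gemin5, -0.16 for Mcm4, -0.16 for Ggta1 and -0.0131 for Alas2. Slc3a2 was also at -0.0501 with upper-quartile scaling, -0.0178 with a stricter filter and -0.0154 with the Xist covariate. With a library left out, the lowest values fell without blister 2 for Slc3a2 (-0.0447 to 0.0916), Slc1a5 (-0.204 to 0.464) and Alas2 (-0.247 to 0.496). Slc6a9 was at -0.0566 without blister 3 and control 3. With the fibroblast covariate the values were 0.0455 for Slc7a7, -0.10 for Slc6a9, -0.29 for Krt1, 0.71 for Col3a1, 3.19 for Pecam1 and 0.11 for Thy1. Pecam1 was at 0.44 with the Xist covariate, 0.92 without blister 3 and control 3 and, with a library left out, between -1.67 and 0.94, the highest without control 3. A prior count of 0.5 moved no log2 CPM of the 10 genes by more than the spread of its group. Depth limits Slc7a7 and Slc38a1 most, with as few as 16 and 45 counts in a library.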

Other observations

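Blister 2, the library with the fewest counts, stood apart for some genes of amino acid use, chosen here after their values were seen. Slc1a5 was at 63.6 CPM there, against 28.4 and 30.7 CPM in blister 1 and 3. Odc1, for the first enzyme of polyamine synthesis from ornithine, was at 178 CPM in blister 2 and at 62.7 and 71.6 CPM in blister 1 and 3, against 47.1, 52.6 and 44.5 CPM in control libraries (edgeR adjusted p = 0.0715). Bcat1, for the cytosolic branched-chain aminotransferase, was at 4.13 CPM in blister 2 and at 1.01 and 1.02 CPM in blister 1 and 3, against 0.230, 0.210 and 0.512 CPM in control libraries (edgeR adjusted p = 0.0434). The summed level of neutrophil markers was also highest in blister 2, at 1036 CPM, against 318 to 636 CPM in blister 3 and 1 and 30.4 to 38.8 CPM in control libraries. Of these markers 11 of 11 tested rose, S100a9 among them, where 9.74% of all genes were called higher. In blister 2 S100a8 and S100a9 gave 265 and 350 CPM of the sum. Trem1 and Fpr1 were instead highest in blister 1, at 31.2 and 5.60 CPM, against 19.8 and 4.82 CPM in blister 2. The part of neutrophils in the values of Slc1a5, Odc1 and Bcat1 was not tested. Slc1a4 was lowest in blister 2, at 31.8 CPM.

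Among the other marker lists, 3 of 9 tested endothelial genes fell, 1 of 9 for T and mast cells and 1 of 2 for red cells. Over all genes 11.6% were called lower. The genes that fell were Kit of the T and mast cell list and Slc4a1 of the red cell list. Cpa3, Tpsb2 and Cma1, of the same list as Kit, were not called and were high only in control 3, at 37.0, 48.4 and 51.5 CPM. The 5 haemoglobin genes of the red cell list were at 0 in every library. By mean CPM over all 6 libraries the most abundant marker of each of these lists was Pecam1 (3.47 CPM in blister and 7.54 CPM in control libraries), Thy1 (33.6 and 43.2 CPM) and Alas2 (12.96 and 10.96 CPM), none of them called. The control mean of Pecam1 rested on control 3, with 0.921, 2.59 and 19.1 CPM in control 1, 2 and 3. By the mean of control libraries alone Kdr (1.53 CPM in blister and 8.40 CPM in control libraries) exceeded Pecam1 and Kit (20.4 and 49.9 CPM) exceeded Thy1, and both Kdr and Kit fell. For keratinocytes, hair follicle, fibroblasts, macrophages and melanocytes it was, by the same mean, Krt1, Krt71, Col3a1, Cd74 and Dct, of which Krt71 (99.7 against 1015 CPM) and Dct (213 against 457 CPM) fell. Krt71 was at 30.9, 16.7 and 251 CPM in blister 1, 2 and 3. Its call was lost with the Xist covariate and when any library other than blister 3 was left out. The Dct call held with each library left out, and both calls were lost with the fibroblast covariate. In blister libraries alone Tchh, at 134 CPM, exceeded Krt71, and Postn, at 523 CPM against 517 CPM in control libraries, exceeded Col3a1.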
